A study of Sus scrofa and Bos taurus with 31 samples.

Results

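The T cell genes described here were CD3D, CD3E, CD3G, CD2, CD5, CD6, LCK and TCF7, which are 8 of the 20674 protein-coding genes that RefSeq annotates on the pig genome build Sscrofa11.1. They were chosen by name, and each was measured over a window made of the gene and 10 kb on either side. The assay was ATAC-seq, in which a transposase cuts DNA that is not packed tightly into chromatin, so that stretches with many cuts, called peaks, mark accessible DNA. Nuclei came from 8 tissues (spleen, lung, liver, adipose, skeletal muscle, and the brain regions cerebellum, hypothalamus and cerebral cortex) of 2 animals, P348 and P350, giving 16 libraries with 1 animal each and 2 libraries per tissue. The study's methods describe the pigs as castrated male Yorkshire littermates aged 6 months. The labels name no treatment, and the groups differ in tissue. Each library was made from bulk nuclei that had been cryopreserved, so a tissue holding fewer T cells and T cells with less accessible DNA cannot be told apart in these values. The level of a gene in a library is the number of its window's bases that lie in peaks, given per Mb of all peak bases of that library.

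T cells recognise antigen through the T cell receptor, whose signal is carried by the CD3 chains. CD3E, CD3D and CD3G encode the epsilon, delta and gamma chains of that complex, and LCK encodes the kinase that phosphorylates them first. CD2 is an adhesion and costimulatory receptor of T and NK cells, CD5 and CD6 are related scavenger-receptor proteins that tune receptor signalling, and TCF7 encodes TCF-1, a transcription factor of developing, naive and memory T cells. The spleen filters blood and holds large T cell zones around its arterioles beside B cell follicles and macrophage-rich red pulp. Active promoters and enhancers are commonly accessible in the cells that use them, and enhancers at the 3′ ends of CD3D, CD3E and CD2 have been described in human and mouse.

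The genes lie on 4 chromosomes of Sscrofa11.1. CD3E (chr9:45619730-45633972, plus strand), CD3D (chr9:45640475-45644153, minus strand) and CD3G (chr9:45645243-45656779, plus strand) form a cluster in which the starts of CD3D and CD3G face away from each other across 1090 bp. Their windows overlap, so the 3 CD3 values share peaks and are not independent of each other. CD5 (chr2:10648973-10673479) and CD6 (chr2:10739560-10785548) are neighbours on the minus strand, 66081 bp apart, and their windows do not overlap. CD2 is at chr4:103963802-103976971 on the minus strand, LCK at chr6:88719886-88745922 on the plus strand and TCF7 at chr2:136422740-136456323 on the plus strand. Starts of genes outside the CD3 family fall in the windows of CD3G (UBE4A) and LCK (FAM167B, HDAC1 and LOC106510645).

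Sequences are shown for a pair of promoters with high peaks at the start in spleen, CD3E and CD2, and for the middle of each of the 4 stretches in the members' windows that had a peak in both spleen libraries and in no other library. They were read from the Sscrofa11.1 genome of RefSeq. The promoters are the 250 bases before the annotated start, in the direction of the gene (chr9:45619480-45619729 for CD3E and chr4:103976972-103977221, minus strand, for CD2). The other 4 are 250 bases of the plus strand, upstream of CD3E (chr9:45616361-45616610), in an intron of CD2 (chr4:103967047-103967296), downstream of CD6 (chr2:10736469-10736718) and in an intron of LCK (chr6:88723165-88723414). Capitals mark matches, on either strand, to 5 motifs whose letters are spelled out after the sequences.
CD3E promoter: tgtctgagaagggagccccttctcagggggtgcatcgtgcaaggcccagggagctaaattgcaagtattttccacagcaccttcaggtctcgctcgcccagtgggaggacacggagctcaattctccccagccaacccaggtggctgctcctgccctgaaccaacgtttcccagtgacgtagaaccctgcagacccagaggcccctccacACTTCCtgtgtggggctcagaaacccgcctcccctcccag
CD2 promoter: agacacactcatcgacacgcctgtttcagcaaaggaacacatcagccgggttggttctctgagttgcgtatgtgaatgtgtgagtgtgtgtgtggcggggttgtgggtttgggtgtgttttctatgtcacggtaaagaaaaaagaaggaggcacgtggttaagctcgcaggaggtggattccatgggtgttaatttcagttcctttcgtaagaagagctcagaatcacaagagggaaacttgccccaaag
CD3E upstream region: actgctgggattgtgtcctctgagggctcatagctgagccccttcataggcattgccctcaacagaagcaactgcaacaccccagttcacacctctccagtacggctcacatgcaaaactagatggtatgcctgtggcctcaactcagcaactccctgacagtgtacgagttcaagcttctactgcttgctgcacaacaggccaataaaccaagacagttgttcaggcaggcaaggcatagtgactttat
CD2 intron region: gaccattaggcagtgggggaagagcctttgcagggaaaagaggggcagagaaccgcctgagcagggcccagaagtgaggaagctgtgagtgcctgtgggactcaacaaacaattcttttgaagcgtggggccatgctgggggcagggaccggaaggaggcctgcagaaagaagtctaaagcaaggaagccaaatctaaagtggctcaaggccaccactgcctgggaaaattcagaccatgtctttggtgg
CD6 downstream region: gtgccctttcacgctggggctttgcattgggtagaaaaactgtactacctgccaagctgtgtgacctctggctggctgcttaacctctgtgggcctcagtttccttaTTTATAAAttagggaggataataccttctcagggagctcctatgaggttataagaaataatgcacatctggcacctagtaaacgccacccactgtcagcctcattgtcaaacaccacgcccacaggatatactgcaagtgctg
LCK intron region: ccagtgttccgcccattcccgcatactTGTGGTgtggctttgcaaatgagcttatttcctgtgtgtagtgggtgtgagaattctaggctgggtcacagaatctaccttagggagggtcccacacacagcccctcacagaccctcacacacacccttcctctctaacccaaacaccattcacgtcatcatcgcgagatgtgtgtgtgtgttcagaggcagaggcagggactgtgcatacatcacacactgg

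The motifs were searched in the 250 bases before the start of each of the 8 genes and in the 4 spleen stretches, and with so few sequences the counts are a description. The ETS factor motif GGAAGT was found in 2 of the 8 promoters, those of CD3E and CD5, against 17.3% of 20664 coding gene promoters of the same length. It was in 0 of the 4 spleen stretches and in 19.5% of 67582 stretches with a peak in both spleen libraries. The RUNX factor motif TGTGGT was found in the promoter of CD6 and of no other member (14.1% of promoters), and among the spleen stretches in the LCK intron (19.2% of such stretches). The GATA factor motif GATAAG was in 0 of 8 promoters and 0 of 4 stretches (5.06% and 5.85% of all). The TCF/LEF factor motif CTTTGA was also in 0 of 8 and 0 of 4 (10.8% and 13.1% of all). The TATA box letters TATAAA were in 0 of 8 promoters (10.4% of all) and, among the spleen stretches, in that of CD6 on both strands in overlapping positions (9.09% of all). The E-box CANNTG, too common to be marked, was in 8 of 8 promoters (62.3% of all) and 3 of the 4 stretches (72.6% of all). A match describes the letters and does not show that a factor binds, and the windows without a match may hold other forms of the same motif.

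The lists held between 99960 and 217308 peaks covering 64.1 to 156 Mb. The spleen lists were among the shortest, with 105278 peaks over 66.3 Mb in P348 and 104299 peaks over 67.8 Mb in P350. The peak lists hold no read numbers, so no counting interval was computed, and the read depths that the study lists elsewhere were not used here. Marker genes, 3 for each of the 7 other tissues, were looked up in the same way. In skeletal muscle all 3 (CKM, ACTN3 and MYOD1) were above every other library in both animals, and in liver APOA1 was. In lung, adipose and the brain regions no marker window separated in this way, and the adipose hormone gene ADIPOQ had 27.1 and 22.3 peak bases per Mb in adipose but 38.5 and 42.1 in spleen. In the comparison of spleen with the other 7 tissues given below, ADIPOQ passed as higher in spleen (log2 difference 1.13 ± 0.26, adjusted p = 0.0124, limma). The adipose markers PLIN1 (1.00 ± 0.34, adjusted p = 0.0591, limma) and LEP (-0.33 ± 0.56, adjusted p = 0.691, limma) did not pass. Peaks at the start followed the labels more closely, since the start of ADIPOQ had a peak in both adipose libraries and 0 of the 14 others, and that of the surfactant gene SFTPC in both lung libraries and 0 of the 14 others.

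**Figure D1:**
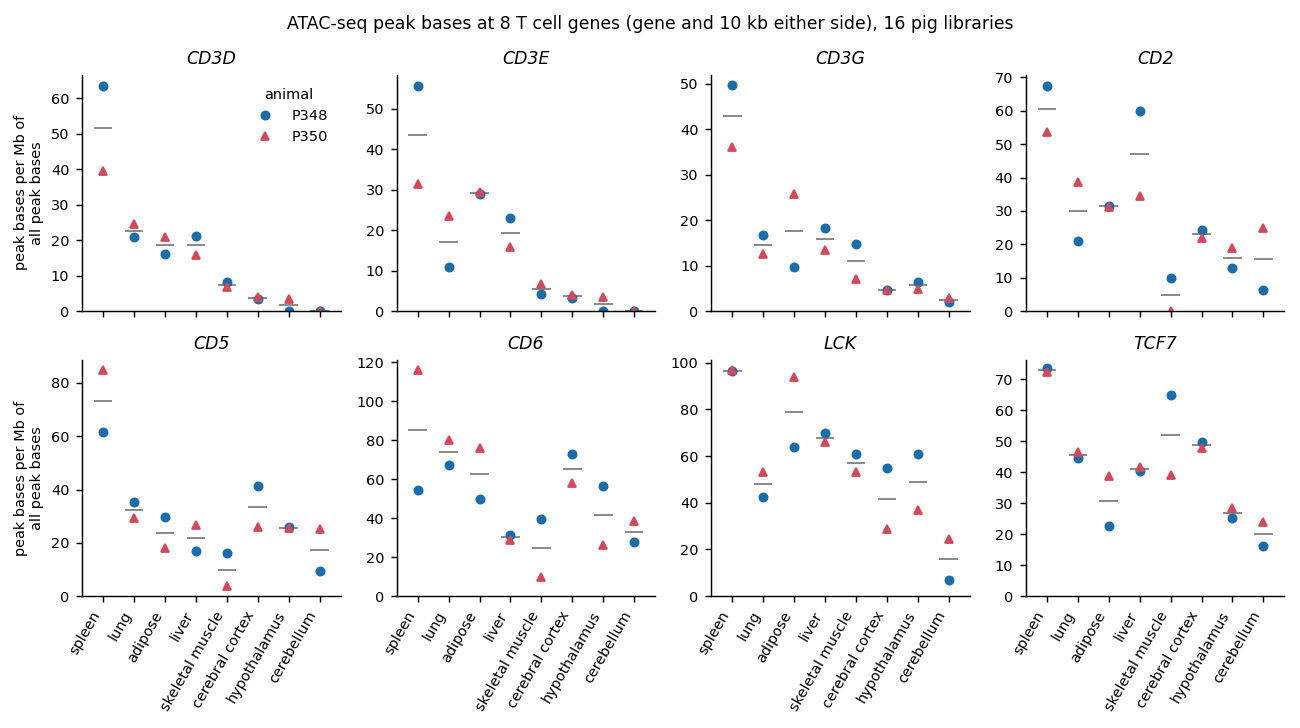
Peak bases per Mb of all peak bases (vertical axes, each from 0) for the 8 T cell genes in each of the 16 pig libraries, by tissue. Circles are animal P348, triangles P350 and grey lines the mean of the 2. Spleen has the highest mean in 8 of 8 genes, a pattern not counted over all genes. The 2 spleen libraries stand above the 14 others in 6 of the 8, as for 8.50% of all genes tested.

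The comparison of spleen with the other 7 tissues asked where the T cell genes are most accessible. The window of each of the 8 genes had its highest tissue mean in spleen. The share of all genes with their highest mean in spleen was not counted. In the test, 7 of 8 passed as higher in spleen (limma on log2(peak bases per Mb + 5), Benjamini-Hochberg adjusted p under 0.05). Across all genes tested, 14% passed in that direction and 3.75% as lower. The median difference was 1.47 on the log2 scale over the 8 genes and 0.29 over all 19638 genes tested. The differences were largest for the CD3 chains and smallest for CD6, TCF7 and LCK. Values below are differences on the log2(peak bases per Mb + 5) scale, spleen minus the mean of the others, with their standard error, and this scale understates the differences of genes with few peak bases. Means with SD are over the 2 animals.

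CD3D, the delta chain, had 63.5 and 39.6 peak bases per Mb in the spleens of P348 and P350. In the 14 other libraries it ranged from 0 to 24.5 (lung P350) with a median of 7.44. Both spleen values lie above all others, and 3 brain libraries, both of cerebellum and hypothalamus P348, had no peak in the window. The difference was 2.13 ± 0.24, a 4.36-fold higher value on this scale (adjusted p = 0.000573, limma).

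CD3E, the epsilon chain, had 55.7 and 31.3 peak bases per Mb in spleen. The other libraries ranged from 0 to 29.4 (adipose P350) with a median of 5.48. The lower spleen library lies just above the adipose pair, whose values were 29.0 and 29.4. The difference was 1.89 ± 0.28 (adjusted p = 0.00167, limma).

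CD3G, the gamma chain, had 49.7 and 36.1 in spleen, and the 14 others ranged from 2.05 to 25.7 (adipose P350) with a median of 8.44. The groups do not overlap. Part of every library's value here is a peak at the start of UBE4A, which was present in 16 of 16 libraries. The difference was 1.76 ± 0.28 (adjusted p = 0.00234, limma).

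CD2, the adhesion receptor, had 67.5 and 53.7 in spleen, against 0 to 59.8 in the others with a median of 23.1. Liver P348 held the 59.8 and lay above the lower spleen library, so the groups overlap. The difference was 1.40 ± 0.40 (adjusted p = 0.0302, limma).

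CD5 had 61.7 and 84.7 in spleen and 3.83 to 41.2 elsewhere (median 25.6), with the highest other value in cerebral cortex P348. Both spleen libraries lie above all others. The difference was 1.55 ± 0.34 (adjusted p = 0.0101, limma).

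CD6, its relative, had 54.4 and 116 in spleen and 9.92 to 80.3 elsewhere (median 44.6). The 2 spleens differ more from each other than for any other member, with a mean of 85.2 ± 43.5, and the spleen of P348 was above only 4 of the 7 other tissues of that animal. The difference of 0.83 ± 0.37 did not pass (adjusted p = 0.122, limma, 95% interval 0.04 to 1.63).

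LCK had 96.4 and 96.8 in spleen, and the others ranged from 7.01 to 93.9 (adipose P350) with a median of 53.9. TCF7 had 73.4 and 72.4 in spleen, and the others ranged from 16.3 to 64.7 (skeletal muscle P348) with a median of 39.7. For both genes the spleens nearly coincide and lie above all 14 others, by a margin that is narrow for LCK. The differences were 1.00 ± 0.30 for LCK (adjusted p = 0.0388, limma) and 0.93 ± 0.22 for TCF7 (adjusted p = 0.0144, limma).

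Both spleen libraries were thus above all 14 others for 6 of the 8 genes, CD3D, CD3E, CD3G, CD5, LCK and TCF7, which holds for 8.50% of all genes tested. Within each animal, spleen was above all 7 other tissues for 8 of 8 genes in P350 and 7 of 8 in P348, the exception being CD6. How many of all genes tested do so within an animal was not counted. Their median spleen difference was 0.29, so these counts alone do not set the members apart. Over the joined CD3 windows, a stretch of 57050 bp, spleen had 97.8 and 59.4 peak bases per Mb and the 14 others 2.05 to 44.5.

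The spleen counts depended on the scale and on the window. A short list makes each peak base weigh more, and without dividing by all peak bases 3 of 8 passed, the CD3 genes (1.34% of all genes passed as higher), and CD3G alone had both spleens above all others (1.20% of all genes). On raw bases the joined CD3 stretch had 6481 and 4028 bases under peaks in spleen, and lung P350 (4355) and adipose P348 (4244) passed the lower of these. With each library centred on its median gene, 4 of 8 passed, the CD3 genes and CD5 (4.68% of all genes). Over all genes, the calls split into 2741 higher and 737 lower in spleen as reported, 263 and 981 on raw bases, and 919 and 1600 after centring, with medians of 0.29, -0.16 and -0.05. The difference kept its sign for 8 of 8 members under each of these scales. Counting the gene body without its flanks left 2 of 8, CD5 and TCF7 (9.93% of all genes), and the CD3D difference was then 0.18 (adjusted p = 0.576, limma). With a single spleen library, which is then assumed to vary like the other groups, fewer members passed. The share of all genes passing in those fits is not given here. Without P348 and without P350 the differences were 1.24 and 1.55 for CD2 and 1.76 and 1.33 for CD5. They were 1.00 and 1.00 for LCK and 0.92 and 0.94 for TCF7.

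**Figure D2:**
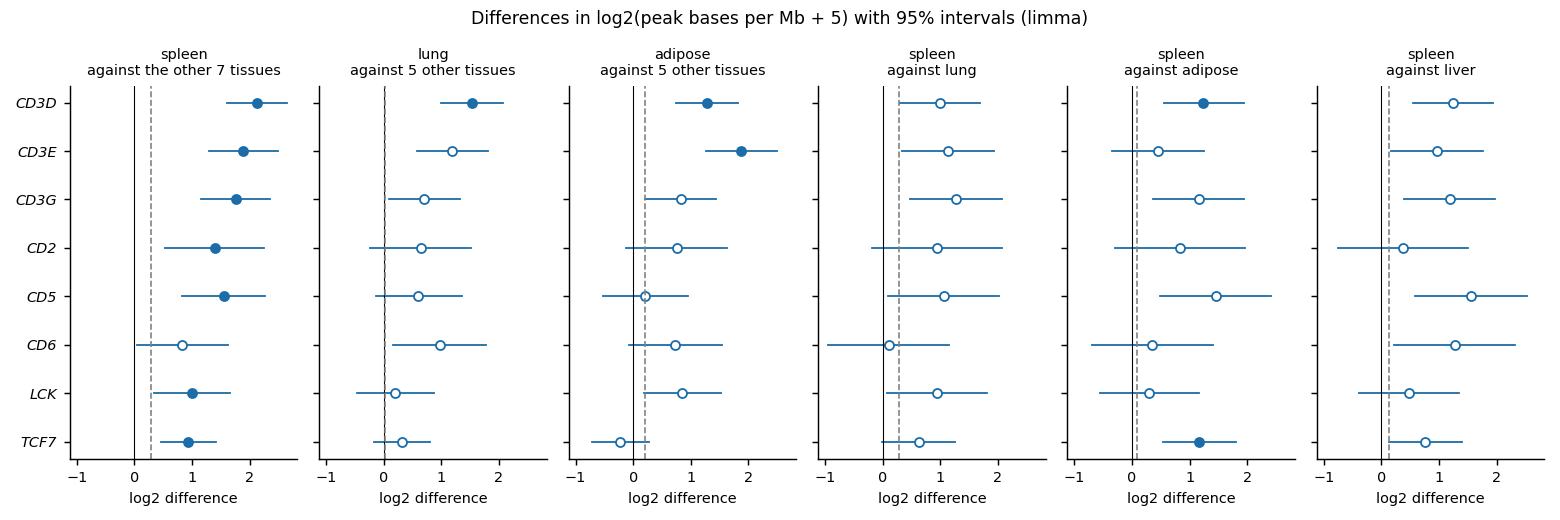
Differences in log2(peak bases per Mb + 5) for 6 comparisons (first tissue minus reference, horizontal axes) with 95% intervals from limma, for the 8 genes. Filled points have an adjusted p under 0.05 and the dashed line is the median difference over all 19638 genes. Filled points number 7 for spleen against the other 7 tissues, 1 for lung, 2 for adipose, 0 for spleen against lung, 2 for spleen against adipose and 0 for spleen against liver.

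Lung was compared with cerebellum, cerebral cortex, hypothalamus, liver and skeletal muscle. CD3D was higher in lung, with 20.9 and 24.5 peak bases per Mb and a difference of 1.53 ± 0.25 (adjusted p = 0.0250, limma). It was the 1 of 8 members that passed, and 0.300% of all genes did. CD3E had 11.0 and 23.4 in lung, a difference of 1.19 ± 0.29 that did not pass (adjusted p = 0.0958). CD6 had 67.5 and 80.3, a difference of 0.97 ± 0.38 (adjusted p = 0.280). The remaining 5 differences lay between 0.20 for LCK and 0.70 for CD3G. The CD3D call was lost without either lung library, without skeletal muscle P350 and at q-value limits for peaks of 0.01 and 0.0001.

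Adipose was compared with the same 5 tissues. CD3E was higher in adipose, with 29.0 and 29.4 peak bases per Mb and a difference of 1.87 ± 0.29 (adjusted p = 0.00472, limma). CD3D, with 16.1 and 21.0, was also higher, by 1.29 ± 0.25 (adjusted p = 0.0123, limma). These 2 of 8 passed, against 5.13% of all genes. LCK reached 63.7 and 93.9 in adipose, a difference of 0.85 ± 0.31 (adjusted p = 0.109), and TCF7, with 22.6 and 38.7, differed by -0.22 ± 0.23 (adjusted p = 0.572). In the CD3 windows the adipose peaks outside UBE4A had −log10 q-values of 2.79 or less. A q-value limit does not act alike across libraries. A fold of 3.37 went with 2.79 in adipose P348, and a fold of 3.35 with 6.03 in spleen P350. With peaks kept at q under 0.01 neither CD3D (0.53) nor CD3E (0.72) passed, TCF7 passed as lower (-2.08, adjusted p = 0.00649, limma), and at q under 0.0001 the CD3D and CD3E differences were both -1.03. CD3D was lost as well without either adipose library, and CD3E without P350.

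Liver was part of that reference, and at CD3D and CD3E it had more peak bases per Mb than muscle and brain. Its CD3D values were 21.3 and 15.7 and its CD3E values 22.9 and 15.9 peak bases per Mb, while the 4 tissues of muscle and brain did not exceed 8.18 for CD3D and 6.70 for CD3E. With liver left out of the reference, a choice made after seeing these values, lung was higher for CD3D and CD3E (2 of 8, against 1.09% of all genes) and adipose for CD3D, CD3E and CD3G (3 of 8, against 7.95%).

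Compared directly, spleen had the higher mean than lung, adipose and liver for each of the 8 genes, and few of these differences passed. The median difference over all genes was positive as well, at 0.29 against lung, 0.09 against adipose and 0.14 against liver. Against lung 0 of 8 passed (4.62% of all genes did) and 5 had an unadjusted p under 0.05 in limma, as 21.8% of all genes did in that direction. The closest was CD3G, at 1.28 ± 0.37 (adjusted p = 0.0546, interval 0.48 to 2.07), and CD6 was at 0.11 ± 0.49 (interval -0.94 to 1.16). Against adipose 2 of 8 passed (3.07% of all genes), CD3D at 1.24 ± 0.32 (adjusted p = 0.0456) and TCF7 at 1.17 ± 0.29 (adjusted p = 0.0411), while CD3E differed by 0.46 ± 0.37 (interval -0.34 to 1.25). With the animal as a block in limma, 0 of 8 passed against adipose, and leaving out any library of adipose, lung, cerebral cortex or spleen also gave 0. Against liver, a comparison added after the data had been seen, 0 of 8 passed (1.13% of all genes) and 6 had an unadjusted p under 0.05 (10.7% of all genes did in that direction), with CD3D closest at 1.25 ± 0.32 (adjusted p = 0.0616, limma). These comparisons share the spleen libraries and the estimate of spread.

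The order of tissues below spleen differed between genes. For the CD3 genes lung, adipose and liver followed, then skeletal muscle, and the brain tissues were lowest. CD2 had liver second, with a mean of 47.2 ± 17.8, and CD5 had cerebral cortex second, at 33.6 ± 10.9. LCK was followed by adipose (78.8 ± 21.3) and TCF7 by skeletal muscle (51.9 ± 18.0). Neighbours in these orders often differed by less than the SD over the 2 animals, as lung (32.2 ± 4.33) and cerebral cortex did at CD5.

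**Figure D3:**
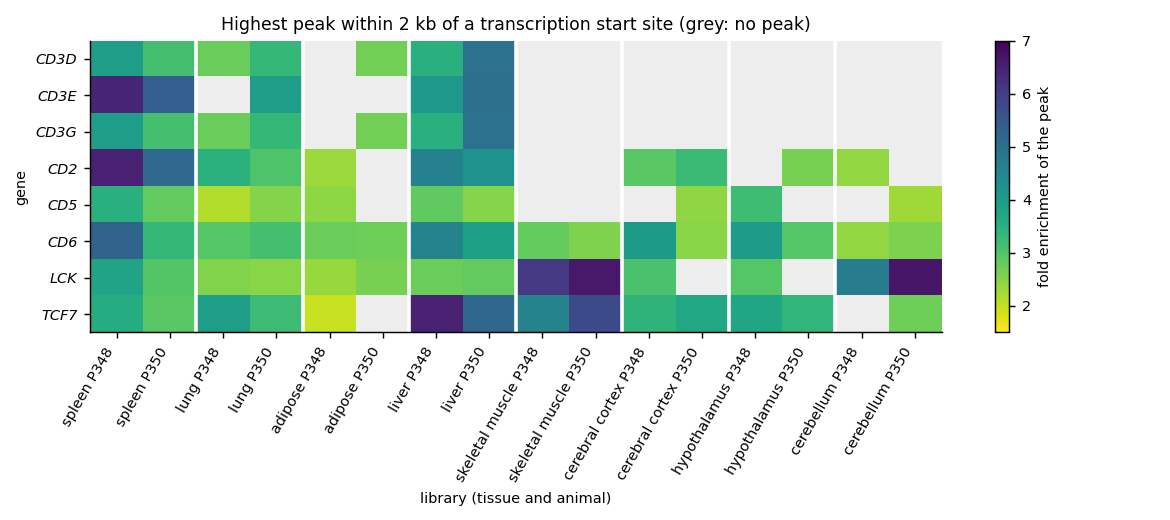
Fold enrichment of the highest peak within 2 kb of an annotated transcription start site for the 8 genes (rows) in 16 libraries (columns), grey where no peak was listed. Spleen and liver columns are filled for 8 of 8 genes in both animals, and the CD3 rows are grey in the 8 libraries of skeletal muscle and brain.

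A peak within 2 kb of the transcription start site was present in both spleen libraries for 8 of 8 genes, as for 69.7% of all coding genes, so the presence of such a peak in spleen is common. What varied was the presence elsewhere. Both liver libraries also had a peak at 8 of 8 starts, and both lung libraries at 7 of 8, the exception being CD3E in P348. Adipose and cerebellum had both libraries positive for 2 of 8, hypothalamus for 2, and cerebral cortex and skeletal muscle for 3. No member had a start peak in both spleens and in none of the 14 others, a pattern shared by 0.121% of all coding genes (25 genes). In the other 7 tissues, 67.3% to 77.2% of all coding genes had a start peak in both libraries.

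CD3E had the most restricted start. Its peak was listed in 5 libraries, with a fold enrichment over local background of 6.42 and 5.36 in spleen, 4.07 and 4.96 in liver and 3.93 in lung P350. The shared start region of CD3D and CD3G had folds of 3.92 and 3.13 in spleen, 3.50 and 4.95 in liver, 2.76 and 3.34 in lung and 2.67 in adipose P350. In both liver libraries the peak covered the CD3G start and ended 954 and 952 bp from that of CD3D. In the 8 libraries of skeletal muscle, cerebral cortex, hypothalamus and cerebellum, 0 had a peak within 2 kb of any CD3 start. CD2 had 6.49 and 5.11 in spleen, 4.58 and 4.19 in liver and at most 3.49 elsewhere.

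The other 4 genes had start peaks more widely. CD5 was positive in 8 of the 14 other libraries, CD6 in 14, LCK in 12 and TCF7 in 12. At TCF7 the highest folds were those of liver (6.50 and 5.17) and skeletal muscle (4.53 and 5.77), above spleen at 3.60 and 2.90. LCK has 3 annotated starts in RefSeq, 2 close together at the 5′ end of the gene and 1 further downstream at position 88736508. At the upstream starts the strongest peaks were in cerebellum (4.70 and 6.67) and skeletal muscle (6.08 and 6.62), and spleen had 2.69 and 2.59. At the downstream start spleen had the highest folds, 3.78 and 2.97, followed by hypothalamus P348 (2.95), and both cerebellum libraries had no peak. With peaks kept at q under 0.0001, both libraries were positive at 8 of 8 starts in spleen, 3 in liver, 2 in skeletal muscle, 1 each in lung, cerebellum, cerebral cortex and hypothalamus and 0 in adipose. The share of all coding genes at this limit is not given here, and the limit did not act alike across libraries. The CD3E start peak of liver P348 (fold 4.07) had a −log10 q-value of 3.72 and was dropped. The peak at the CD3D and CD3G start in spleen P350 (fold 3.13) had 8.07 and was kept.

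**Figure D4:**
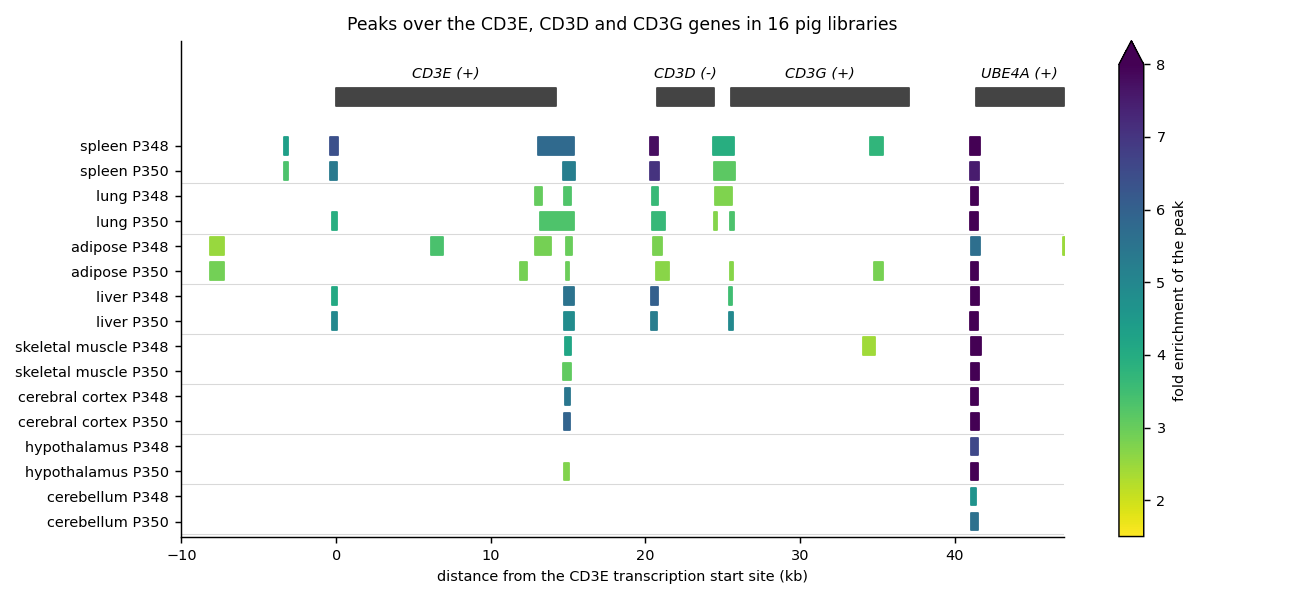
Peaks (bars, coloured by fold enrichment, with 8 and above in 1 colour) over the CD3E, CD3D and CD3G genes in each of the 16 libraries, with the genes on top and the distance from the CD3E start in kb on the horizontal axis. Spleen, liver, lung and adipose have peaks at the 3′ end of CD3D, where muscle and brain have none. Peaks near the 3′ end of CD3E are also present in both libraries of skeletal muscle and of cerebral cortex. The brain libraries have few peaks, and the peak at UBE4A is present in 16 of 16.

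When overlapping peaks of the 16 libraries were merged, the windows of the 8 genes held 93 separate accessible regions, of which 38 had a peak in both spleen libraries. Of these 38, 25 had peaks in both lung libraries, 23 in both liver libraries, 15 in both of cerebral cortex, 14 in both of adipose, 11 in both of skeletal muscle, 9 in both of hypothalamus and 8 in both of cerebellum. Regions in both libraries of all 8 tissues numbered 3, at the starts of UBE4A, HDAC1 and CD6. Regions in both spleens and in no other library numbered 4 of 38, or 10.5%, against 5.57% of the 67887 such regions genome-wide. This share is a description, since 31 of the 93 regions were listed in 1 library only.

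The 4 regions are those whose sequence is printed above. The one upstream of CD3E (chr9:45616329-45616643, 315 bp) is centred at -3244 bp from the start and had folds of 4.36 and 3.35. The LCK intron region (chr6:88723079-88723500, 422 bp) had 3.42 and 3.20, and the region downstream of CD6 (chr2:10736333-10736855, 523 bp) had 4.37 and 2.85. The CD2 intron region (chr4:103967039-103967305, 267 bp) was the weakest, with 2.64 and 2.16.

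The highest folds of the CD3 cluster outside UBE4A were at the 3′ end of CD3D (chr9:45640045-45641254, overlapping its last exon). They were 7.76 and 7.06 in spleen and 6.02 or less elsewhere, with peaks in both libraries of liver, lung and adipose and none in muscle or brain. The region at the 3′ end of CD3E (chr9:45632588-45635190) was shared more widely, in both libraries of 6 tissues, with 5.77 and 5.24 in spleen and up to 5.93 elsewhere. At CD2, a region beyond the 3′ end (chr4:103959639-103961532) had folds of 3.89 and 3.53 in spleen and was otherwise listed in the 2 adipose libraries, at 3.21 or less.

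**Figure D5:**
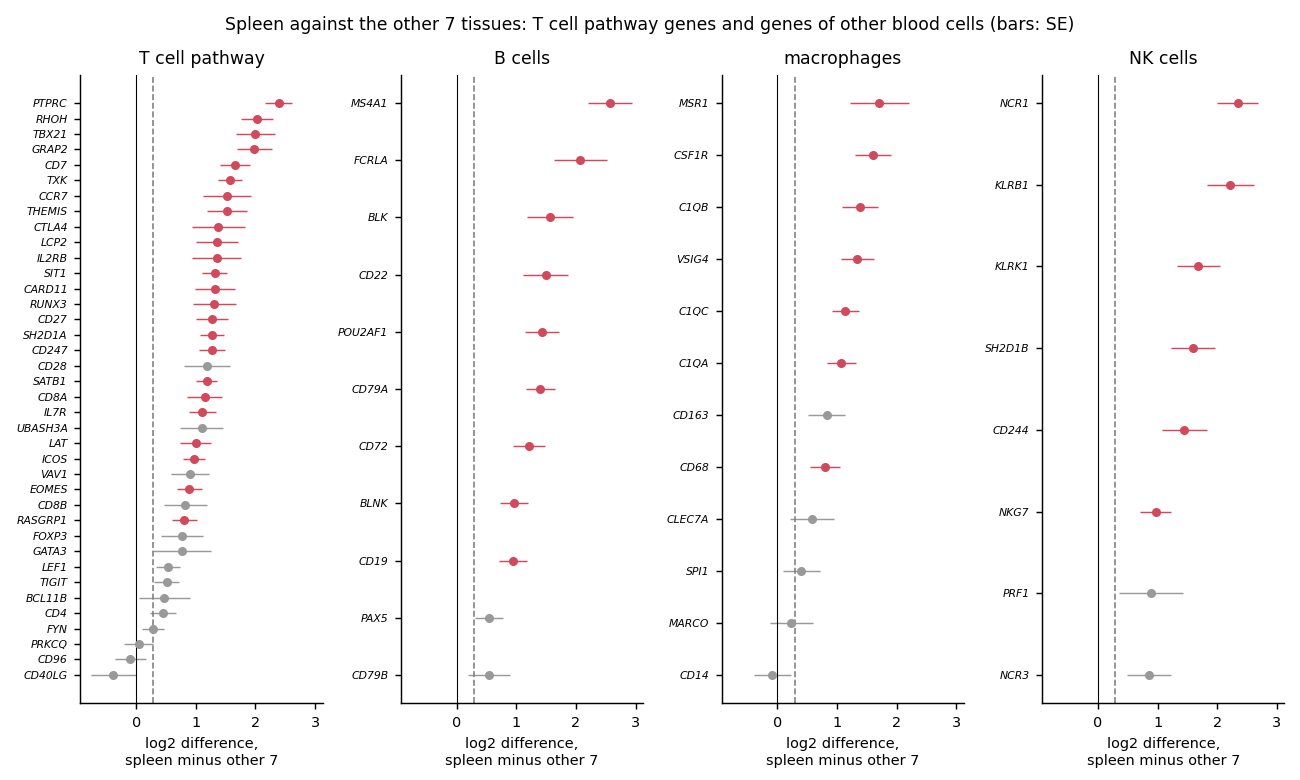
Difference in log2(peak bases per Mb + 5), spleen minus the other 7 tissues, with its SE (bars) for the T cell pathway genes reported here and for marker genes of B cells, macrophages and NK cells. Red points passed at an adjusted p under 0.05 and the dashed line is the median of all genes, 0.29. Passing genes number 9 of 11 for B cells, 7 of 12 for macrophages and 6 of 8 for NK cells, and the pathway panel runs from PTPRC at 2.39 down to CD40LG at -0.38.

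Other genes of the T cell receptor pathway, its coreceptors and T cell transcription factors were taken from a list of 42, of which 40 matched a RefSeq symbol (ZAP70 and TRAT1 did not). As higher in spleen 26 of 40 passed (14% of all genes) and as lower 0, with a median difference of 1.18 against 0.29 for all genes. This list was not counted on raw peak bases or after centring, scales on which 1.34% and 4.68% of all genes passed as higher. The largest were PTPRC, the CD45 phosphatase of white blood cells (221 and 203 peak bases per Mb in spleen, 0 to 85.0 elsewhere, difference 2.39 ± 0.23, adjusted p = 0.000175, limma), and RHOH, a GTPase of blood cells (136 and 143 in spleen, 2.66 to 67.5 elsewhere, 2.03 ± 0.27). TBX21, the factor T-bet, and GRAP2, an adaptor of receptor signalling, followed with differences of 2.00 ± 0.33 and 1.98 ± 0.29. The coreceptor CD8A passed (1.15 ± 0.29, adjusted p = 0.0199, limma), while CD8B (0.82 ± 0.36, adjusted p = 0.123) and CD4 (0.45 ± 0.21, adjusted p = 0.150) did not. The zeta chain CD247 passed (1.27 ± 0.22), as did LAT (1.00 ± 0.26), the adaptor that links the receptor to downstream signalling. CD28, the main costimulatory receptor, was at 1.19 ± 0.39 (adjusted p = 0.0514) and BCL11B, a factor of T cell commitment, at 0.47 ± 0.43 (adjusted p = 0.448). In lung 0 of 40 passed in either direction against the 5 other tissues (0.300% of all genes passed as higher), and in adipose 2 of 40 passed as higher, a share near the 5.13% of all genes.

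Genes of other blood cells moved with the T cell genes. Of the B cell markers, 9 of 11 annotated (CR2 was not) passed as higher in spleen (14% of all genes, 1.34% on raw peak bases and 4.68% after centring, scales on which the marker lists were not counted), led by MS4A1, which encodes CD20 (51.0 and 42.7 in spleen, 0 to 23.8 elsewhere, 2.57 ± 0.37), and FCRLA (2.07 ± 0.44). Of the macrophage markers 7 of 12 passed, led by the scavenger receptor gene MSR1 (1.71 ± 0.49) and the receptor gene CSF1R (1.60 ± 0.30), and of the NK cell markers 6 of 8, led by NCR1 (2.34 ± 0.34) and KLRB1 (2.22 ± 0.39). The median differences of the 3 lists were 1.40, 0.95 and 1.52, and 0 genes of any passed as lower. Summed over the B cell list, spleen had 840 to 914 peak bases per Mb and the other libraries 246 to 566. For macrophages the ranges were 475 to 576 and 213 to 397, and for NK cells 381 to 397 and 75.6 to 254. No marker of these lists was at 0 in spleen. Liver had the highest NK sums after spleen, 184 to 254, against 160 to 165 in lung and 163 to 170 in adipose. NK cells also use CD2 and some CD3 genes, and the part that other blood cells have in the members' values was not tested.

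Across the 16 libraries the members varied together to different degrees. Pearson's r between members on the log2 scale was 0.87 to 0.96 within the CD3 cluster, where windows overlap, 0.78 for CD5 and CD6, and 0.35 for both CD6 with CD3E and CD6 with LCK. Among coding genes with windows apart from theirs, the 5 most like the members' mean were FAM227A (r = 0.931), RPAP2 (0.927), ARHGAP25 (0.927), RSPH3 (0.921) and LOC110261034 (0.921). ARHGAP25, which encodes a GTPase-activating protein of blood cells, had 223 and 245 peak bases per Mb in spleen and at most 123 elsewhere. The others were also highest in spleen. FAM227A had 59.9 and 73.9 there (at most 43.5 elsewhere) and RPAP2 172 and 127 (107). RSPH3 had 65.2 and 83.9 (37.3) and LOC110261034 73.6 and 80.9 (63.1). Likeness was computed without regard to cell type. The correlations and values are descriptions over 16 libraries that share animals and list lengths.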

How the data were processed

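ATAC-seq was run by the study on about 200K cryopreserved nuclei per tissue, sequenced as paired reads. Versions of Trim Galore (0.4.5), BWA (0.7.17), SAMtools (1.10) and Picard (2.18.17) come from the submitters' processing notes. Any shift of cut ends specific to ATAC-seq is not given in the sources used here. The authors called broad peaks with MACS2 at a q-value limit of 0.05 for each library in the deposited lists used here. Peaks that the study called on both animals combined were not used. The deposited lists hold a score for each peak, a fold enrichment (a ratio to local background), a −log10 p-value and a −log10 q-value. They hold no read counts. Read depths that the study lists elsewhere were not used here, and whether longer lists come from deeper libraries was not tested.

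Peak bases in each gene's window were divided by all peak bases of the library in Mb. This scaling raises every gene in libraries with short lists, spleen included. The 19638 coding genes with a peak in at least 2 of 16 libraries were fitted as log2(value + 5) in limma (3.58.1, R 4.3.3) with a trended prior over the 8 tissues, and p-values were adjusted by Benjamini-Hochberg over all of them. The fit was tested on simulated data, drawn from normal distributions with each gene's mean and spread. Changes were planted in spleen, and no other differences between tissues or shifts between libraries were simulated. That test therefore does not cover the zeros and unequal lengths of the real lists. P-values rest on 2 animals per tissue. Regions are peaks of the 16 libraries merged where they overlap. Genes were taken from RefSeq on Sscrofa11.1, and all 270 sequence names in the lists matched.

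The members and gene lists were chosen with earlier results of these data known. Text names the 8 members, from the pathway list the 6 passing genes with the largest spleen difference and CD4, CD8A, CD8B, CD247, ZAP70, LAT, CD28 and BCL11B, at most 2 genes per marker list, and the 5 genes most like the members' mean. Some genes the rule names are counted but not reported here by name. All tissues of a number came from the same animal. Deviations of the 2 animals from their tissue means correlated across genes at -0.215 to 0.158 over the 28 pairs of tissues (median 0.00491). The 15 cattle lists were not used. Alternatives changed the q-value limit, pseudocount, filter, window, scaling, list length, reference and animal block, and left out each library.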

Additional observations from a re-analysis of the deposited data

How the results depend on the processing

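Counts of members that passed are given here for the settings that moved them by over 1.5 times, and the cause was not tested except where fewer bases or libraries enter by construction. The share of all genes that passed also moves with the setting, so a count alone does not set the members apart. For spleen against the other 7 tissues it was 14% as reported and 9.93% for the gene body alone. It was 1.34% on raw peak bases and 4.68% with libraries centred. For most other settings the share is not given here. For spleen against the other 7 tissues the count was 7 as reported, 2 for the gene body alone, 3 on raw peak bases, 4 with libraries centred, 5 to 8 under the other settings, and 1 to 7 with 1 library left out. Gene by gene, over the 14 settings other than leaving out a library, CD3D, CD3E, CD3G and CD5 passed under 13, TCF7 under 11, CD2 under 8, LCK under 7 and CD6 under 2. LCK lost its call in 9 of the 16 fits without 1 library, with adjusted p up to 0.218, so it is the least stable of the 7 calls. The count of members with both spleens above all 14 others was 6 as reported, 2 for the gene body alone, 3 without peaks near another gene's start, 1 on raw peak bases, and 6 to 7 with 1 library left out. The count of 8 starts with a peak in both spleens stayed at 8 under both q-value limits, with lists of equal length, at a distance of 500 bp and where the start itself had to lie in the peak.

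For the comparisons that follow, shares of all genes under changed settings are not given here, apart from the reference without liver above. The counts therefore show how the calls move and do not set the members apart from other genes. For lung against 5 other tissues the count of 1 became 0 at q under 0.01, at q under 0.0001, with a pseudocount of 1, for the gene body alone, with a window of 50 kb, without peaks near another gene's start and by peak number. It became 2 with lists of equal length, 3 on raw peak bases and 2 with the reference without liver, and ranged from 0 to 1 with 1 library left out. For adipose the count of 2 became 0 at q under 0.01 and 0 at q under 0.0001, 1 with a window of 2 kb and 1 with lists of equal length, and ranged from 0 to 3 with 1 library left out. Spleen against lung went from 0 to 3 at q under 0.01, 3 at q under 0.0001, 3 with a pseudocount of 20, 1 with a window of 2 kb and 3 with one of 50 kb, and 0 to 1 with 1 library left out. Spleen against adipose went from 2 to 5 at q under 0.01, 7 at q under 0.0001, 0 with a pseudocount of 1, 4 with one of 20, 1 for the gene body alone, 0 with a window of 50 kb, 1 without peaks near another gene's start, 1 by peak number, 1 with lists of equal length, 0 on raw peak bases, 1 with libraries centred and 0 to 3 with 1 library left out. Spleen against liver went from 0 to 1 at q under 0.01, 3 with a pseudocount of 20, 1 with a window of 2 kb, 2 with one of 50 kb, and 0 to 1 with 1 library left out.

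The animals pair the tissues. With the animal as a replicate block, spleen against adipose went from 2 to 0 passing members, spleen against the other 7 tissues stayed at 7, and the block moved no other count of members by over 1.5 times.

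Differences that changed sign were, for adipose against 5 other tissues, CD2 at q under 0.01 (-0.22), CD3D (-1.03), CD3E (-1.03), CD2 (-1.38), CD5 (-1.39), CD6 (-1.17) and LCK (-1.60) at q under 0.0001, CD5 with a window of 2 kb (-0.01), with libraries centred (-0.02) and without adipose P348 (-0.08), and TCF7 for the gene body alone (0.18), with a window of 50 kb (0.42) and without adipose P348 (0.12). For lung they were CD2 (-1.38), CD6 (-1.17) and LCK (-0.22) at q under 0.0001. For spleen against lung they were CD3D (-0.05), CD2 (-0.22) and CD6 (-0.22) for the gene body alone, CD6 (-0.78) and TCF7 (-0.25) on raw peak bases, CD6 with libraries centred (-0.24), without lung P348 (-0.01) and without spleen P350 (-0.40). For spleen against adipose they were CD3D (-0.64), CD3E (-0.19), CD2 (-0.32), CD6 (-0.05) and LCK (-0.42) for the gene body alone, CD3E (-0.06), CD6 (-0.20) and LCK (-0.26) on raw peak bases, and CD6 without spleen P350 (-0.16). For spleen against liver it was CD2 with a window of 2 kb (-0.24). With 1 library left out, the range was -0.08 to 0.50 for CD5 and -0.55 to 0.12 for TCF7 in adipose against 5 other tissues, -0.40 to 0.62 for CD6 in spleen against lung and -0.16 to 0.86 for CD6 in spleen against adipose. Under the settings run, no difference changed sign for spleen against the other 7 tissues. Comparisons with liver, raw peak bases, centring, the reference without liver and starts inside a peak were chosen after seeing the data.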

Other observations

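Among the pathway and marker genes, a peak within 2 kb of the start in both spleens and in 0 of the 14 other libraries was listed for SATB1, a chromatin organiser of lymphocytes, and for the B cell genes CD79A and FCRLA, which were picked out after their values were seen. SATB1 had 144 and 146 peak bases per Mb in spleen and 44.6 to 77.6 elsewhere, and CD79A, a signalling chain of the B cell receptor, had 38.9 and 39.6 in spleen and 2.33 to 27.5 elsewhere. CD96, a receptor of T and NK cells, and CD40LG, the ligand by which T cells activate B cells, had differences of -0.10 ± 0.26 and -0.38 ± 0.37 between spleen and the other tissues (adjusted p = 0.804 and 0.486, limma), and they were the 2 of the 40 pathway genes with a negative difference.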
